A study of Mus musculus with 6 samples.

Results

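Integrins and cadherins are the main receptors by which cells hold on to the extracellular matrix and to each other. Their transcripts were examined in the hippocampus of control mice and of mice labelled as treated with methamphetamine (MA). The members were the rows of the expression table whose symbol is an integrin alpha subunit (Itga followed by letters or digits), an integrin beta subunit (Itgb with a number) or a numbered cadherin (Cdh). Itgam and Cdh5 were left out of the set, as they serve here as markers of microglia and endothelium. This gave 43 genes, 24 integrins and 19 cadherins, of the 16060 rows of the table. Of them, 32 passed the filter on low values and were tested, 17 integrins and 15 cadherins, among 13321 tested genes.

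The libraries came from adult male C57BL/6 mice, with 3 labelled Control and 3 labelled MA, and each library was taken as 1 mouse. According to the methods of the study, the MA dose was stepped up weekly, from 5 to 10 to 15 mg/kg over 3 weeks, controls were injected intraperitoneally with saline, and tissue was taken after behavioral tests on day 22. The values were the deposited log2 expression values, named RPKM (read counts scaled to gene length and sequencing depth) by the authors, and an offset of 1 was inferred from their lowest value of 0. Levels in RPKM below were obtained by reversing that transform. The deposited values had been brought to a common distribution, with the same highest log2 value of 12.3 in all 6 libraries. These levels, and sums and ratios of them, can therefore differ from the original RPKM. A log2 fold change subtracts the Control mean from the MA mean on the log2(value + 1) scale, so that it is positive where the libraries labelled MA were higher. This scale understates the change of low genes. The depth of the libraries is unknown, since the table gives no read totals.

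An integrin receptor is a pair of 1 alpha and 1 beta subunit, and the pair sets which matrix protein or counter-receptor is bound. Inside the cell, talins and kindlins join the beta subunit to actin and to focal adhesion kinase. Cadherins bind the same or a related cadherin on the neighbouring cell in a calcium-dependent manner, and catenins link their tails to actin. In the hippocampus both families take part in the formation of synapses, in the adhesion of glia and vessels and, for alpha V integrins, in the release of active TGF-beta from its latent form.

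Markers of the tissue and of other cells were read first. The hippocampal excitatory marker Slc17a7 had a log2 level between 9.09 and 9.38 in the 6 libraries, and Prox1 of the dentate gyrus between 3.26 and 3.67. All 5 choroid plexus markers (Ttr, Folr1, Kl, Clic6, Kcnj13) were higher in the libraries labelled MA, with a summed level of 64.5 to 418 RPKM in Control and 1770.2 to 5069.6 RPKM in MA, and 3 of the 5 passed an adjusted p under 0.05 (limma). Ttr in MA replicate 3, at a log2 level of 12.3, stood at the highest value shared by the 6 libraries. All 5 blood cell markers were higher as well, with sums of 1599 to 2024 RPKM in Control and 3319 to 4378 RPKM in MA. The meningeal fibroblast markers summed to 13.9 to 16.7 RPKM in Control and 20.8 to 33.5 RPKM in MA. Of these markers only Dcn, with a log2 fold change of 1.30, had groups that did not overlap. The groups overlapped for Col1a1, Col1a2, Lum and Slc6a13. Summed levels of the neuron, astrocyte, oligodendrocyte, oligodendrocyte precursor, microglia, endothelium and pericyte lists overlapped between the groups. In bulk tissue, fewer cells of a type and less RNA per cell cannot be told apart. The part of the choroid plexus and blood signal in the differences below was not tested. The thalamus markers summed to 15.7 to 22.3 RPKM in Control, 38.1 and 50.9 RPKM in MA replicates 1 and 2 and 15.4 RPKM in MA replicate 3, and the sums of the dentate gyrus, CA1, and CA3 and CA2 lists overlapped between the groups. The part of the thalamus signal in the results was not tested. The library labelled MA replicate 3 stood apart from the rest of its group, with a mean Pearson correlation of 0.978 with the other two across tested genes, against 0.984 to 0.993 for the 5 other libraries.

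The direction of every difference rests on the group labels of the columns. The immediate early genes Fos, Egr1, Arc and Nr4a1, which neurons switch on after activity, were lower in every library labelled MA, with log2 fold changes of -1.61, -1.46, -1.80 and -1.45 (limma adjusted p = 0.0315, 0.0181, 0.0181 and 0.0244). The paper reports these genes as raised by MA, both in its sequencing and in a separate qPCR, so the labels of the columns go against both. Whether the labels are exchanged cannot be told from the table, and an exchange would turn the sign of each difference given here, that of Itgav included, without altering its size or p.

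None of the 32 tested members passed an adjusted p under 0.05 (limma, Benjamini-Hochberg adjustment across all 13321), a threshold that 0.263% of all tested genes passed. The integrin alpha V gene Itgav came nearest and ranked 38 of 13321 by p. An unadjusted p under 0.05 was reached by 5 members, or 15.6%, beside 10.4% of all tested genes. Itgav, Itga6 and Cdh9 were lower in the libraries labelled MA, a direction that 5.46% of all tested genes had at this threshold, and Itga3 and Itga2b were higher, as were 4.99% of all tested genes. The groups did not overlap for 5 members, Itgav, Itga8 and Cdh9 with all libraries labelled MA below Control and Itga3 and Itga2b with all above. That is 15.6% of the members, beside 17.5% of all tested genes, of which 10.2% had MA lower and 7.32% had MA higher. The sets as a whole were centred near 0. The median log2 fold change was -0.037 over the tested integrins and 0.012 over the tested cadherins, while it was -0.010 over all tested genes. Of the integrins 7 had a positive and 10 a negative log2 fold change, and of the cadherins 8 a positive and 7 a negative one, beside 47.3% positive and 52.7% negative over all tested genes.

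**Figure D1:**
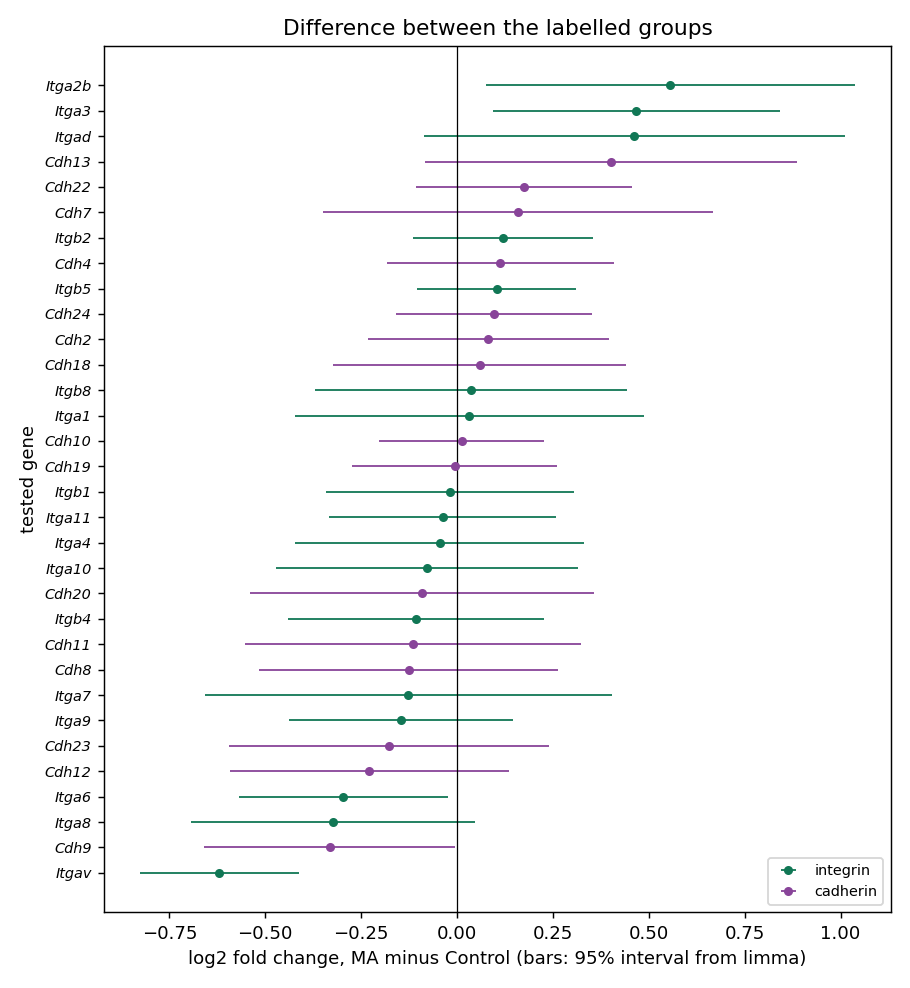
Each point is the log2 fold change of a tested gene (horizontal axis, libraries labelled MA minus libraries labelled Control), with its 95% interval from limma as a bar, for 17 integrins in green and 15 cadherins in purple. Itgav lies farthest below 0, at -0.62, and Itga2b farthest above, at 0.56, whereas the intervals of 27 of the 32 genes include 0.

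Itgav (ENSMUSG00000027087) encodes the alpha V subunit, which recognises the RGD motif of vitronectin, fibronectin and the latency peptide of TGF-beta. The gene lies on the plus strand of chromosome 2 of GRCm38 from 83724397 to 83806916, and its annotated exons merge into 32 separate stretches. The 300 bases around its start are shown because Itgav had the largest difference among the tested members with the offset of 1. With offsets of 0.1 and 0.01 the log2 fold change of Itga2b was larger in size, at 0.79 and 0.83, against -0.67 for Itgav with either offset. They span chr2:83724147-83724446 on the plus strand (RefSeq, GRCm38.p6), and capitals mark the single GC box, GGGCGG, searched on both strands.
Itgav: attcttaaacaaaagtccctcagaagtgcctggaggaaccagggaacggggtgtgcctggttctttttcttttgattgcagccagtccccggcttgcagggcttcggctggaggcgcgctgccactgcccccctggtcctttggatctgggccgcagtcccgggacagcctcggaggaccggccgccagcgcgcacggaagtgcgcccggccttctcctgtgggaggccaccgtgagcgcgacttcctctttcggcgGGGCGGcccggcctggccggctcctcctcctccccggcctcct
The window had a GC content of 67.3%. A GC box was present in 11 of 32 member promoters, which belong to 28 of the 43 genes, and in 35.7% of 32851 promoters of the same length. A match of letters is a description only, and the data hold no measurement of promoter activity.

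The log2 level of Itgav was 3.89, 3.99 and 3.85 in Control replicates 1, 2 and 3. In the libraries labelled MA it was 3.31, 3.35 and 3.22. Every library labelled MA was thus below every Control library, and the gap between the groups was far wider than the spread inside either. The means were 3.91 ± 0.07 and 3.29 ± 0.07 (SD, n = 3 each), which corresponds to 14.1 ± 0.75 and 8.80 ± 0.44 RPKM. The log2 fold change was -0.62 (standard error 0.09, 95% interval -0.83 to -0.41, limma adjusted p = 0.0570), or 0.651-fold in RPKM + 1. An exact two-sided permutation test gave p = 0.1, the smallest p that 3 against 3 allows. Itgav passed the adjusted threshold without MA replicate 3 (limma adjusted p = 0.0301), as did 1.93% of all tested genes. It also passed with limma's sample quality weights (limma adjusted p = 0.00970), as did 4.4% of all tested genes. Its adjusted p ranged up to 0.287 in the fits that left out 1 of the other libraries. The log2 fold change stayed between -0.67 and -0.58 under all alternatives. Exons of Itgav overlap those of Gm13684 on the other strand, which is not analysed here, and whether reads were counted by strand is not stated.

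The alpha V subunit pairs with the beta subunits 1, 3, 5, 6 and 8, and none of the 3 of these genes that were tested reached an unadjusted p under 0.05 (limma). Itgb5, the vitronectin partner and the most abundant integrin gene over the 6 libraries, had log2 levels of 3.75, 3.73 and 3.71 in Control and 3.87, 3.92 and 3.72 in MA. Its log2 fold change was 0.10 (95% interval -0.10 to 0.31). Itgb1, the common partner of most alpha subunits, had levels of 3.61, 3.67 and 3.88 in Control and 3.91, 3.75 and 3.45 in MA. The groups overlapped, with the lowest and the highest library both labelled MA, and the interval of the difference ran from -0.34 to 0.31. Itgb8, whose alpha V pair activates TGF-beta on glial cells, had a log2 fold change of 0.04 (95% interval -0.37 to 0.44). Itgb3 and Itgb6 fell under the filter, with log2 levels of 0.41 to 0.61 and of 0 to 0.04.

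The level of Itgav was also set against those of other integrin genes. These ratios and shares reuse the Itgav values above and are no separate result. For each 100 RPKM of the summed 5 beta partners, Itgav had 50.5, 54.5 and 45.3 RPKM in the Control libraries. The corresponding values in MA were 27.5, 29.8 and 33.5. As a share of the summed level of all alpha subunit members, Itgav made up 31.9% to 34.6% in Control and 21.9% to 26.1% in MA. By mean level Itgav was the most abundant of the 24 integrin genes in Control, above Itgb5 at 12.3 and Itgb1 at 12.2 RPKM. In MA it ranked 3, below Itgb5 at 13.3 and Itgb1 at 12.1 RPKM. Summing the genes does not measure how many receptors were formed.

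**Figure D2:**
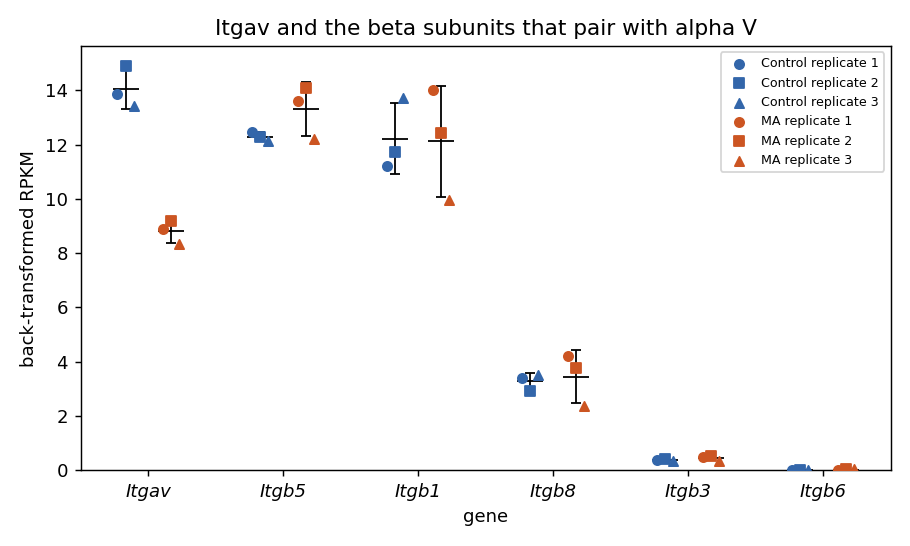
Back-transformed RPKM (vertical axis, from 0) of Itgav and the 5 beta subunit genes whose products pair with alpha V, with 1 marker per library (blue Control, orange MA) and the mean ± SD of the 3 libraries in black. The Itgav markers of the groups are separate, at 13.4 to 14.9 RPKM in Control and 8.32 to 9.19 RPKM in MA, while those of Itgb1 and Itgb8 overlap.

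The other alpha subunits of the RGD-binding group differed in direction from each other. Itga8, which with Itgb1 forms the nephronectin receptor, had log2 levels of 2.40, 2.19 and 2.36 in Control and 1.66, 2.16 and 2.16 in MA. All 3 libraries labelled MA were lower, replicate 1 by the most, but the difference of -0.32 had an interval of -0.69 to 0.05 (limma adjusted p = 0.546). Itga8 shares exonic sequence with E030013I19Rik on the other strand. Itga2b, the alpha IIb subunit known from platelets, had levels of 1.39, 1.16 and 1.25 in Control and 1.42, 1.79 and 2.26 in MA. MA replicate 1 was close to the highest Control library and MA replicate 3 stood far above. Itga2b was higher by 0.56 on the log2 scale (standard error 0.21, 95% interval 0.07 to 1.04, limma adjusted p = 0.417), and by 0.34 without MA replicate 3. Of 7 platelet genes looked up after this value was seen (Pf4, Gp9, Gp1ba, Gp1bb, Ppbp, Treml1, Clec1b), 4 fell under the filter and none of the 3 tested reached an unadjusted p under 0.05. Their summed level was 10.2 to 13.4 RPKM in Control and 11.1 to 16.4 RPKM in MA. The log2 fold changes of the 3 tested were 0.27 for Gp1bb, -0.18 for Pf4 and -0.29 for Gp9. Itga5, the classical fibronectin receptor subunit, was under the filter at 0.44 to 0.70.

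Among the laminin-binding subunits, Itga3 and Itga6 differed in opposite directions. The log2 level of Itga3 was 1.50, 1.89 and 2.12 in Control and 2.29, 2.30 and 2.33 in MA. The libraries labelled MA were nearly equal and all higher, whereas the Control libraries were widely spread. The difference was 0.47 (SE 0.16, 95% interval 0.09 to 0.84, limma adjusted p = 0.375). Itga6 had levels of 3.08, 3.30 and 3.21 in Control and 3.08, 2.83 and 2.79 in MA. The groups met only at MA replicate 1, which was level with Control replicate 1. The difference was -0.30 (standard error 0.12, 95% interval -0.57 to -0.02, limma adjusted p = 0.442). Itga7 varied most within Control, from 2.48 to 3.28, and its difference of -0.13 turned positive without Control replicate 1 (0.097) or MA replicate 1 (0.026). Itgb4, which pairs with alpha 6 in laminin-binding receptors, was 2.02 to 2.36 in Control and 1.94 to 2.31 in MA.

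The collagen-binding and leukocyte subunits were scarce in this tissue. Itga1, Itga10 and Itga11, which recognise collagens, had mean levels of 0.538, 0.890 and 0.596 RPKM over the 6 libraries, with overlapping groups. Itga4, a receptor subunit for Vcam1 and fibronectin, had a log2 fold change of -0.04, and Itga9, a receptor subunit for tenascin and osteopontin, one of -0.15. Itgb2, the beta subunit of leukocytes and microglia, was 1.31 to 1.45 in Control and 1.44 to 1.53 in MA on the log2 scale. Itgad, its alpha D partner, was spread from 0.15 to 0.96 in Control and from 0.68 to 1.26 in MA. The exons of Itgad overlap those of 4 other annotated genes, Cox6a2 among them. Itgal, Itgax, Itgae and Itgb7, which mark leukocyte subsets, were all under the filter, and Itgax was listed at 0 in 1 Control library.

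**Figure D3:**
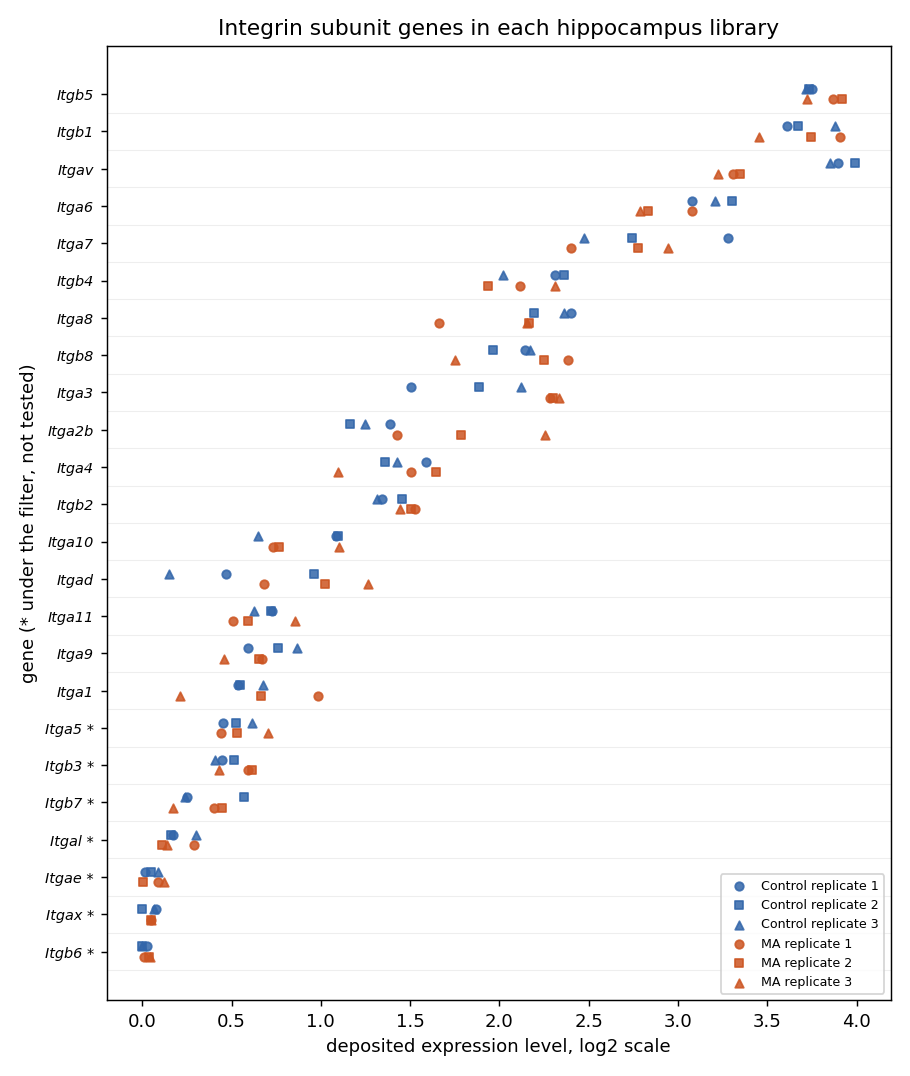
Deposited log2 level (horizontal axis) of each of the 24 integrin genes in the 6 libraries, ordered by mean level, with blue for Control, orange for MA, and circle, square and triangle for replicates 1, 2 and 3. The Itgav markers of the groups are apart, at 3.85 to 3.99 and 3.22 to 3.35, and the 7 genes marked with a star fell under the filter and were not tested.

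The cadherin set was led by Cdh2 (N-cadherin), the classical cadherin of synapses and neural progenitors. Its log2 level was 4.61, 4.69 and 4.77 in Control and 4.89, 4.95 and 4.48 in MA. MA replicates 1 and 2 were above and MA replicate 3 below all Control libraries, and the difference of 0.08 had an interval of -0.23 to 0.40. Cdh2 made up 27.5% to 30.8% of the summed cadherin level in every library. Its type I relative Cdh4 (R-cadherin) had a log2 fold change of 0.11. Cdh1 and Cdh3, the cadherins of epithelia, were under the filter. Cdh3 had log2 levels of 0.04, 0.04 and 0.10 in Control and 0.24, 0.43 and 0.67 in MA, so that every library labelled MA was higher at a level near the bottom of the table.

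Cdh9, a type II cadherin known for a role in the synapses of dentate mossy fibers on CA3 neurons, was the only cadherin of the 15 tested with an unadjusted p under 0.05 (limma). Its log2 level was 3.37, 2.86 and 3.25 in Control and 2.81, 2.85 and 2.82 in MA. The libraries labelled MA lay within a narrow band just under Control replicate 2, the lowest of its group. The difference of -0.33 had a standard error of 0.14 (limma adjusted p = 0.473) and grew to -0.48 without Control replicate 2. Exons of Cdh9 overlap those of Gm49127 on the other strand. Cdh8 and Cdh11, type II cadherins of neuronal circuits, showed MA replicate 3 far below the rest. Cdh8 was 3.43 to 3.51 in Control, 3.57 and 3.52 in MA replicates 1 and 2, and 2.95 in MA replicate 3. Cdh11 was 3.38 to 3.52 in Control, 3.66 and 3.47 in MA replicates 1 and 2, and 2.90 in MA replicate 3. The differences of -0.13 for Cdh8 and -0.11 for Cdh11 turned to 0.07 and 0.11 without that library. Cdh10 was the steadiest of the abundant cadherins, between 2.97 and 3.13 in all 6 libraries, with an interval of the difference of -0.20 to 0.23.

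The remaining type II cadherins showed overlapping groups. Their log2 fold changes ranged from -0.23 for Cdh12 to 0.18 for Cdh22, with Cdh7, Cdh18, Cdh19, Cdh20 and Cdh24 in between. Cdh7 was high in a single library, MA replicate 1, at 1.61 against 0.76 to 1.06 in the other libraries. Cdh13 (T-cadherin), which is held in the membrane by a lipid anchor and lacks a cytoplasmic tail, had levels of 2.80, 3.12 and 3.25 in Control and 3.67, 3.69 and 3.01 in MA. MA replicates 1 and 2 were the 2 highest libraries, and MA replicate 3 fell inside the Control range. The same 2 libraries had the highest sums of the thalamus, neuron, endothelium and meningeal fibroblast markers. The part of these cells in the Cdh13 difference was not tested. The difference of Cdh13 was 0.40 (95% interval -0.08 to 0.89, limma adjusted p = 0.568) and reached 0.62 without MA replicate 3 (limma adjusted p = 0.0739). Cdh23, a component of the tip links of hair cells, had a difference of -0.18. Cdh6 and Cdh26 were under the filter.

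**Figure D4:**
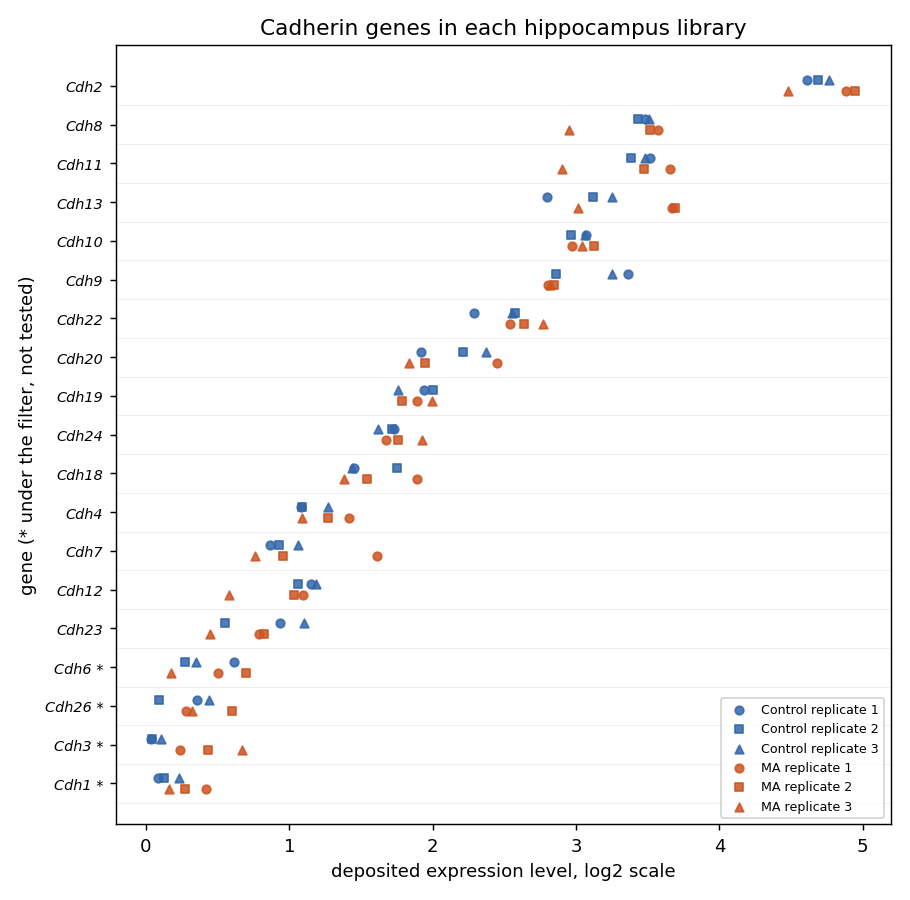
Deposited log2 level (horizontal axis) of each of the 19 cadherin genes in the 6 libraries, ordered by mean level, in the colors and markers of the integrin plot. Cdh2 lies above all others at 4.48 to 4.95, and the triangle of MA replicate 3 is the lowest marker for Cdh8, at 2.95, and for Cdh11, at 2.90.

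Single libraries stood out in the cadherins. The median deviation of the 15 tested cadherins from their mean over 6 libraries was -0.24 in MA replicate 3 and 0.16 in MA replicate 1, and lay between -0.02 and 0.05 in the other 4. MA replicate 3 also had the lowest summed neuron, astrocyte and microglia markers of the 6 libraries, at 1758, 264 and 50.1 RPKM. Its oligodendrocyte sum was the highest, at 3193 RPKM. The part of these cell types in the cadherin deviations was not tested. MA replicate 3 held the lowest value for 8 of 15 cadherins and the highest for 2. Of 17 integrins it held the lowest value for 7 and the highest for 5, and their median deviation there was 0.002. Over all tested genes the same library held the lowest value for 3964 of 13321 genes and the highest for 3415. Without it, the groups did not overlap for 12 of the 32 members, 8 higher and 4 lower, beside 42.9% of all tested genes (20.8% with MA higher and 22.1% with MA lower). The count of members at an unadjusted p under 0.05 was again 5 without it, beside 23.3% of all tested genes, and it was 7 with sample quality weights, beside 26.3%. The count of members without overlap was 9 without Control replicate 2, beside 25.4% of all tested genes, and 10 without MA replicate 1, beside 25.6%. At an unadjusted p under 0.05 the count of 5 members dropped to 2 without Control replicate 3 or MA replicate 2, beside 7.59% and 7.74% of all tested genes, and to 3 without Control replicate 1, beside 6.22%.

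**Figure D5:**
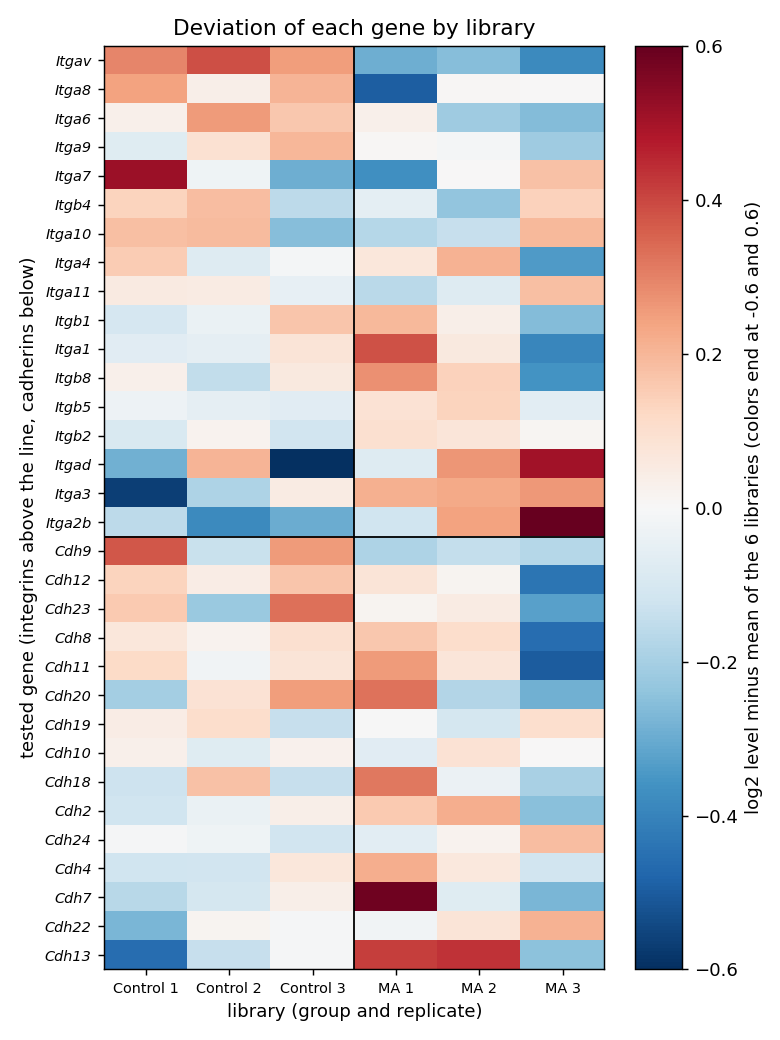
Each cell is the log2 level of a tested gene in a library minus its mean over the 6 libraries, on a color scale from blue (lower) to red (higher) that ends at -0.6 and 0.6, with integrins above and cadherins below the horizontal line and the groups split by the vertical line. Itgav is red in all 3 Control libraries and blue in all 3 libraries labelled MA, and the cadherins are mostly blue in MA replicate 3, where their median is -0.24.

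Genes whose products work with integrins and cadherins were read from 4 lists with 99 genes in all, of which 92 rows were tested. None passed an adjusted p under 0.05 (limma), and 10 reached an unadjusted p under 0.05, 4 higher and 6 lower in MA, beside 10.4% of all tested genes. This count was 21 without MA replicate 3, where 23.3% of all tested genes reached that threshold, and 6 without MA replicate 2, where 7.74% did. The groups did not overlap for 18 of the 92, beside 17.5% of all tested genes. The median log2 fold change of these lists together was 0.025. The 33 tested integrin adaptors and signalling genes had 1 such gene, Tns1 (tensin 1), which binds beta subunit tails and actin. Its log2 level was 2.20, 2.31 and 2.43 in Control and 2.88, 2.75 and 2.87 in MA, higher in every library labelled MA by 0.52 on average (standard error 0.10, limma adjusted p = 0.147). The kindlin gene Fermt2 and the focal adhesion kinase gene Ptk2 differed by -0.19 and -0.16 on the log2 scale (limma adjusted p = 0.607 and 0.575).

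The list of ligands, TGF-beta carriers and membrane partners held 8 of the 10, among 29 tested rows. That is 27.6%, beside 10.4% of all tested genes, in a list chosen with earlier results of these data known. With a minimum mean of 5, only 2 genes over all partner lists reached that threshold. Icam2, an endothelial ligand of leukocyte integrins, was 1.98, 2.02 and 2.30 in Control and 1.21, 1.06 and 1.60 in MA, a difference of -0.81 (standard error 0.17, limma adjusted p = 0.161). Every library labelled MA was below Control. The 5 endothelial markers had log2 fold changes from 0.01 for Cdh5 to 0.30 for Cldn5, and only Cldn5 had groups that did not overlap. The part of endothelial cells in the Icam2 difference was not tested. Of the genes that hold latent TGF-beta, on which alpha V integrins act, Ltbp3 and Nrros were higher by 0.40 and 0.50 (limma adjusted p = 0.277 and 0.322). Lrrc32, another carrier of latent TGF-beta, was lower, with a log2 fold change of -0.34 (limma adjusted p = 0.417). Tgfb1 and Tgfb2 themselves had log2 fold changes of 0.03 and 0.20, with overlapping groups. Cyr61 and Npnt, ligands of alpha V and alpha 8 integrins, had log2 fold changes of -0.56 and -0.27 with groups that did not overlap. Thbs4 was -0.98 with overlap, since MA replicate 3 at 2.57 lay above Control replicate 3 at 2.45. Nid2, a basement membrane linker, was 0.26 higher. Vtn, the vitronectin gene, was abundant at 48.0 RPKM and had a log2 fold change of -0.01.

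The catenins and other cadherin partners gave 0 of 21 tested genes at an unadjusted p under 0.05 with limma, beside 10.4% of all tested genes. Ctnnb1 (beta-catenin) was the most abundant of them, at 126 RPKM, with a log2 fold change of 0.05. Plekha7, an adherens junction protein, and Ctnnbip1, an inhibitor of beta-catenin, had log2 fold changes of 0.37 and 0.27 (limma adjusted p = 0.595 and 0.616). Among 9 tested genes of the wider cadherin superfamily, 1 reached an unadjusted p under 0.05. This was Fat3, a giant cadherin of neurite patterning, at 1.91, 1.75 and 1.89 in Control and 1.68, 1.47 and 1.30 in MA, lower in every library labelled MA (log2 fold change -0.37, limma adjusted p = 0.388). Celsr3 and Fat4 had log2 fold changes of 0.24 and -0.22, and their groups overlapped.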

How the data were processed

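Hippocampal RNA was sequenced in 3 libraries labelled Control and 3 labelled MA. According to the paper, Hisat2 alignments of paired-end reads were counted with featureCounts and scaled to FPKM by the authors. The submitters' processing notes list Bowtie 0.12.2, mm8 and mm9 with no role. The authors deposited 1 table of log2 values named RPKM, whose highest value is the same in all 6 libraries, so the values had been log-transformed and brought to a common distribution in steps that are not described. No counts are given, so the depth is unknown.

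Genes reaching 0.5 on the back-transformed scale in 3 or more libraries were tested with limma 3.58.1 in R 4.3.3 (lmFit, eBayes with trend, no covariate), with Benjamini-Hochberg adjustment over 13321 genes, after the test had been checked on simulated data. Because the values were on a log scale, no pseudocount was added. Genes named in the text were Itgav, members with a p under 0.05 or groups that did not overlap, the 5 most abundant of each family, the alpha V partners, and the 3 genes of each partner list with the smallest p, 1 of which is not reported here. Other genes given with values, such as Cdh3, Cdh7, Vtn, Tgfb1 and Tgfb2, fall outside this rule and were chosen after their values were seen. Members and lists were chosen with earlier results of these data known. Locations are those of GENCODE M21 on GRCm38, matched by Ensembl identifier. The libraries of a group are numbered by their labels, and each was taken as 1 mouse. Replicate numbers are shared between groups, and no source says that they mark pairs. Alternatives were other offsets, filters, normalizations, variance models and library weights, the replicate block, and leaving out each library in turn.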

Additional observations from a re-analysis of the deposited data

How the results depend on the processing

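Itgav stayed lower in the libraries labelled MA under all alternatives, none of which tests the labels themselves, with a log2 fold change of -0.65 to -0.58 when 1 library was left out, and passed the adjusted threshold with sample quality weights (-0.59). Weights gave 1 member at an adjusted p under 0.05, and leaving out 1 library gave 0 to 1. Over all tested genes this count of 35 became 20 with a minimum mean of 5, 3 with no filter, 586 with weights, 15 with the replicate block and 0 to 257 with 1 library left out. The 5 members at an unadjusted p under 0.05 became 3 of 11 with a minimum mean of 5 and 3 with the block, beside 9.87% and 6.32% of all tested genes, and 2 to 5 with 1 library left out, beside 6.22% to 23.3%. The 5 members without overlap became 2 of 11 with a minimum mean of 5, beside 16.9% of all tested genes, and 5 to 12 with 1 library left out, beside 23.6% to 42.9%. The count of 10 partner genes became 2 of 63 tested with a minimum mean of 5 and 27 with weights, where 26.3% of all tested genes reached the threshold, and leaving out 1 library gave 6 to 21. The integrin median of -0.037 was -0.080 and -0.13 with offsets of 0.1 and 0.01, -0.13 with a minimum mean of 5, -0.0059 with no filter, 0.057 with weights and -0.090 to 0.11 with 1 library left out. Weights turned Cdh11 to 0.046, Cdh8 to 0.034 and Itgb1 to 0.057. With 1 library left out, the sign changed within -0.31 to 0.097 for Itga7, -0.12 to 0.11 for Itgb1, -0.091 to 0.23 for Itgb8, -0.027 to 0.049 for Cdh10, -0.27 to 0.11 for Cdh11, -0.24 to 0.071 for Cdh8 and -0.0066 to 0.23 for Cdh2. Where not stated, the cause was not tested. Deviations of same-numbered libraries correlated at -0.20, -0.24 and -0.34 across genes. With 3 libraries per group these values cannot decide whether the numbers pair the mice. The replicate block gave Itgav a limma adjusted p of 0.275. Depth is unknown, and the 11 members under the filter had log2 levels of at most 0.70.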

Other observations

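The neighbourhood of Itgav was read after its values had been seen. Of 12 tested genes within 1 Mb of it on chromosome 2, 7 had a negative and 5 a positive log2 fold change, between -0.23 and 0.26. An unadjusted p under 0.05 (limma) was reached by 2 of the 12, Zc3h15 and Zdhhc5, beside 10.4% of all tested genes. Zc3h15, the nearest tested gene before Itgav, had a log2 fold change of -0.18, and Fam171b, the nearest after it, one of -0.15. The catenin gene Ctnnd1, whose product binds cadherin tails, lies in the same stretch and had a log2 fold change of 0.01. Of the 43 members, 8 lie on chromosome 2, and the 6 tested were Itgav, Itga4 (-0.04), Itga6 (-0.30) and Itga8 (-0.32) with negative and Cdh4 (0.11) and Cdh22 (0.18) with positive log2 fold changes. No neighbour had a difference as large as the -0.62 of Itgav. That value ranked 79 from the lowest among all 13321 tested genes, so any 12 genes would seldom hold one as low.

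Cdh3, under the filter, was at 0.0438 ± 0.026 RPKM in Control and 0.374 ± 0.21 RPKM in MA (SD, n = 3 each). MA replicate 3 had the highest Cdh3 level of the 6 libraries and also the highest sum of choroid plexus markers, at 5069.6 RPKM, and the part of these cells in the Cdh3 difference was not tested. The summed level of the alpha subunit members was 40.3 to 43.4 RPKM in Control and 34.1 to 38.1 RPKM in MA. Itgav is part of that sum, at 13.4 to 14.9 RPKM in Control and 8.32 to 9.19 RPKM in MA. The alpha sum is thus no separate result about the other alpha subunits. The sum of the beta subunit members was 33.2 to 34.4 RPKM in Control and 30.7 to 37.9 RPKM in MA.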
